A study of Mus musculus with 6 samples.

Results

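Matricellular proteins are secreted into the extracellular matrix and signal from it to cells, with little part in its framework. The 10 genes described here encode such proteins of a remodelling vessel wall, and fibronectin, a fibre-forming glycoprotein, is counted with them. They were chosen by name, and each symbol matched 1 row of the deposited gene count table, so that 10 of its 56748 genes are covered. Spp1 encodes osteopontin, Thbs1 and Thbs2 encode thrombospondins, Tnc tenascin-C, Postn periostin, Sparc osteonectin, Ccn1 and Ccn2 the growth factor-inducible CCN proteins also called CYR61 and CTGF, Fn1 fibronectin and Tgfbi the TGF-beta-induced protein. The samples were aortas of 3 sST2-KO mice, which lack the soluble form of the IL-33 receptor ST2, and of 3 wild-type (WT) littermates. Every mouse of both groups was also deficient in apolipoprotein E (Apoe -/-; ApoE-KO in the sample titles), was 6 months old and had received angiotensin II from an osmotic minipump for 28 days. WT therefore means wild type for sST2 alone, and by the labels no aorta without angiotensin II or with intact Apoe was analysed here. The labels do not say how the deletion was made or which sex the mice were.

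As background, integrins are the main receptors of these proteins. Osteopontin, fibronectin and TGF-beta-induced protein bind integrins through short sequence motifs, thrombospondins also bind CD47 and CD36, and osteopontin also binds CD44. In arteries, macrophages and modulated smooth muscle cells are known sources of osteopontin, fibroblasts and activated smooth muscle cells of periostin and tenascin-C, and Ccn1, Ccn2 and Thbs1 are known to be induced quickly by stretch, serum and angiotensin II. TGF-beta is a known inducer of Fn1, Tgfbi, Postn and Ccn2.

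Totals were 15615658 to 17988552 counts per library, and the members had 859 to 64220 counts each, so counting error was small beside the differences between libraries. Il1rl1, the gene that encodes ST2, had 2.39, 2.82 and 4.86 CPM, the library-size unit used throughout, here after TMM scaling, in sST2-KO replicates 1 to 3 and 2.81, 9.49 and 4.35 CPM in WT replicates 1 to 3. Gene counts add its soluble and membrane forms, so they check the genotype weakly. Apoe had 172, 86.7 and 145 CPM in sST2-KO replicates 1 to 3 and 15.1, 11.6 and 507 CPM in WT replicates 1 to 3. All 6 mice are labelled Apoe-deficient, but these counts were uneven: WT replicates 1 and 2 were below every sST2-KO library. WT replicate 3, which also held the hepatocyte transcripts given below, was highest. Whether Apoe status differed between the groups beyond the labels was not tested. All 8 smooth muscle and all 7 endothelial markers of the aorta were detected, with Acta2 at 4137 ± 2123 CPM in sST2-KO and 3178 ± 2030 CPM in WT (SD, n = 3 each). A pair of libraries stood apart in markers of other tissues. In sST2-KO replicate 2 the 8 airway epithelial markers summed to 15446 CPM, where the other 5 libraries had 13.1 to 57.6 CPM. The 8 hepatocyte markers summed to 12991 CPM in WT replicate 3, against 160 to 328 CPM elsewhere. The share of mitochondrial counts was lowest in sST2-KO replicate 2 (7.08%) and highest in WT replicate 2 (37.8%), with 18.4 to 23.7% in the rest.

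Together the members took 0.791%, 0.658% and 0.924% of all counts in sST2-KO replicates 1 to 3, against 1.08%, 1.20% and 1.13% in WT replicates 1 to 3. The widest 95% exact binomial interval, which covers counting error only, was 1.19 to 1.20% in WT replicate 2, and the groups did not overlap. With mitochondrial counts left out of the total, the shares were 1.04%, 0.708% and 1.17% in sST2-KO and 1.33%, 1.92% and 1.41% in WT. On either total, every sST2-KO library was below every WT library. Abundant genes led these sums: in WT replicate 1, Fn1, Sparc and Spp1 had 47579, 45947 and 38222 of the 181355 member counts. The shares therefore describe the abundant members more than the others.

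To set the genes side by side, levels were divided by the gene length given in the table, in CPM per kb. In WT the order was Spp1 (1174 ± 101 CPM per kb), Sparc (728 ± 91.3), Ccn2 (430 ± 119), Fn1 (316 ± 110.1), Postn (177 ± 106), Ccn1 (85.2 ± 6.42), Tgfbi (83.5 ± 3.52), Thbs1 (34.3 ± 6.18), Tnc (17.0 ± 7.27) and Thbs2 (15.9 ± 4.62; SD, n = 3 each). In that order Ccn2 and Fn1, Fn1 and Postn, Ccn1 and Tgfbi, and Tnc and Thbs2 had overlapping ranges over the WT libraries, and the other neighbours did not overlap. In sST2-KO the order below the leading 3 was the same, while the leading genes were Ccn2 (586 ± 461 CPM per kb), Sparc (517 ± 152) and Spp1 (384 ± 145; SD, n = 3 each). Spp1 was thus above Sparc in 3 of 3 WT libraries and in 1 of 3 sST2-KO libraries.

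**Figure D1:**
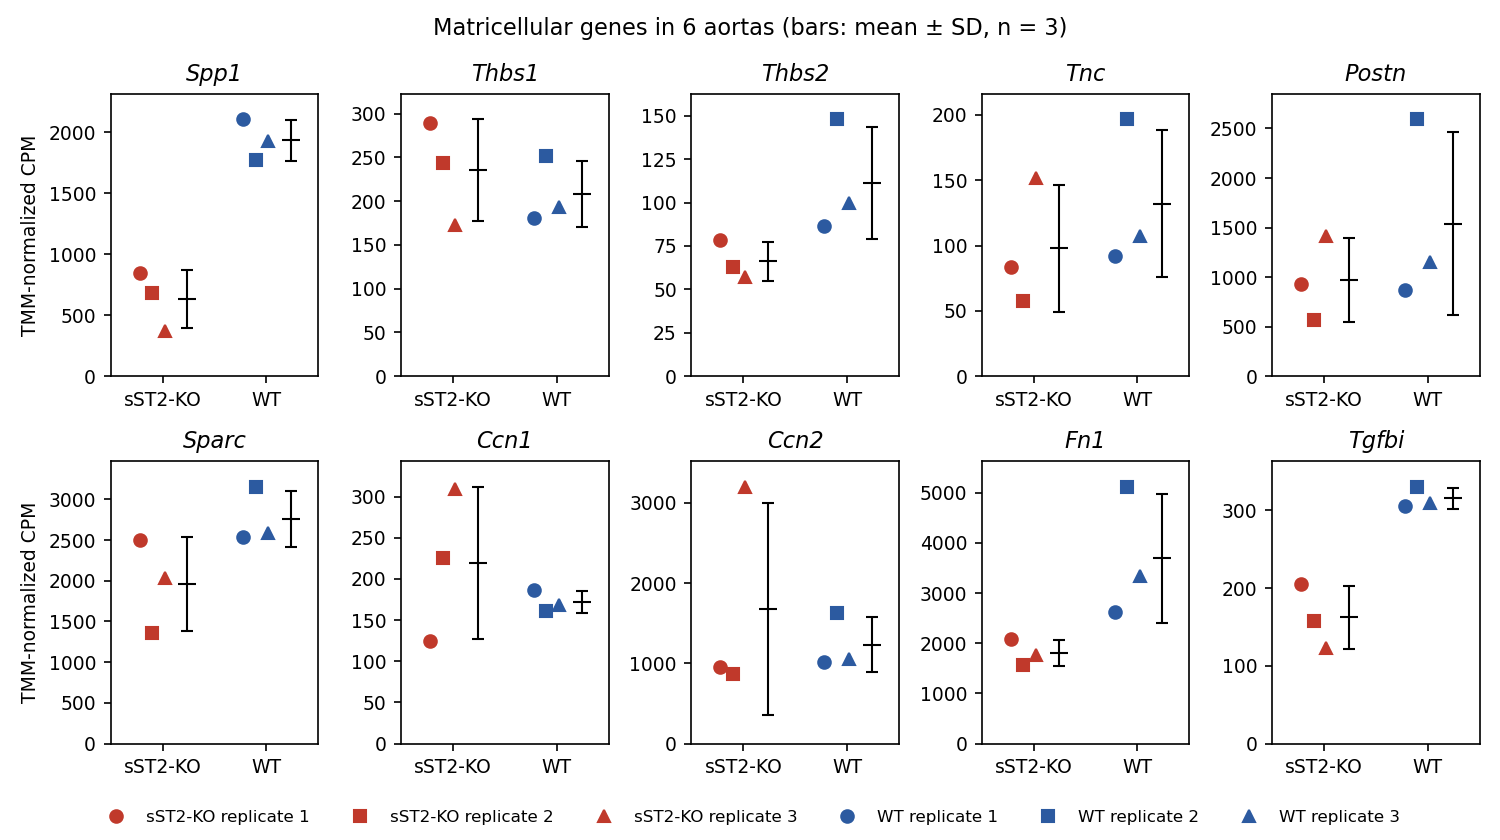
TMM-normalized CPM (vertical axis, linear, from 0) of each gene in sST2-KO aortas (red, left) and WT aortas (blue, right), 1 symbol per library, with the mean and SD of n = 3 beside them. Spp1 runs from 373 to 845 CPM in sST2-KO and from 1774 to 2108 CPM in WT, and Ccn2 has a single high library, sST2-KO replicate 3 at 3199 CPM.

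Between the groups, 7 of the 10 genes had negative and 3 positive log2 changes (sST2-KO over WT), with a median of -0.58 against 0.042 over all 16377 tested genes, of which 46.5% were negative. None of the 10 passed an adjusted p of 0.05 in edgeR's quasi-likelihood test, which called 0 genes in either direction (0% of tested genes), and their adjusted p-values were 0.339 to 0.780. At an unadjusted p under 0.05, 4 members were lower, where 5.95% of all tested genes were lower, and 0 members were higher, where 5.08% of genes were. For 5 members every sST2-KO library lay below every WT library, which held for 10% of tested genes; 0 members lay wholly above, which held for 9.09%. DESeq2 called 3 members lower (Spp1, Tgfbi and Fn1), where it called 1.42% of tested genes lower, and 0 higher, where it called 0.360%. Limma-voom called 0 members, with or without sample quality weights, where it called 0% of genes without them and 0.214% lower and 0.0488% higher with them. The labels name the animals' groups but not litters or cages, so p-values measure only the spread between these 6 samples.

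**Figure D2:**
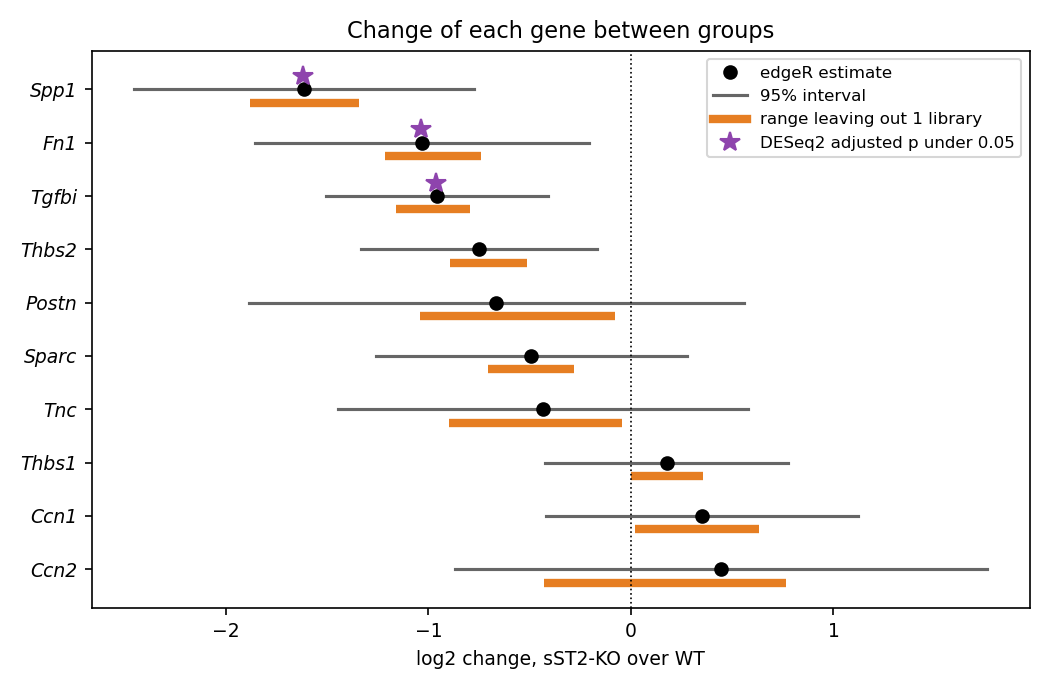
Log2 change of each gene, sST2-KO over WT (horizontal axis; black dot, edgeR estimate; grey line, its 95% interval; orange bar, range of the estimate when each of the 6 libraries is left out in turn; purple star, adjusted p under 0.05 in DESeq2). The intervals of Spp1, Fn1, Tgfbi and Thbs2 lie below 0, and the orange bar of Ccn2 runs from -0.43 to 0.76.

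Spp1 had the largest difference of the 10. Osteopontin is a secreted phosphoprotein that attracts and holds macrophages and that smooth muscle cells make as they lose the contractile state. Spp1 (ENSMUSG00000029304, chromosome 5, 104582984 to 104588916, mm39) had 845, 679 and 373 CPM in sST2-KO replicates 1 to 3 and 2108, 1774 and 1925 CPM in WT replicates 1 to 3. The highest sST2-KO library lay below the lowest WT library, and the spread was wider in sST2-KO. The log2 change was -1.61 (SE 0.35, 95% interval -2.45 to -0.78), a level of 0.327 times that of WT, short of the threshold in edgeR (unadjusted p = 0.00265, adjusted p = 0.339). DESeq2 gave an adjusted p of 0.000325, and over all alternatives the adjusted p was 0.000325 to 0.690. With sST2-KO replicate 2 and WT replicate 3, which held the airway and hepatocyte transcripts, both left out, the log2 change was -1.68. Without WT replicate 2, which had the highest mitochondrial share, it was -1.69.

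Most macrophage markers also had negative log2 changes. Of the 10, 9 were negative (46.5% of all tested genes were), 7 of them at an unadjusted p under 0.05 (5.95% of genes were lower), 0 passed after adjustment in edgeR, and none was at 0 counts. Lyz2 was positive, at 0.19, with 2051, 3152 and 1373 CPM in sST2-KO replicates 1 to 3 and 2043, 1844 and 1887 CPM in WT replicates 1 to 3. Its highest library, sST2-KO replicate 2, also held the airway transcripts, and a link was not tested. For 6 of the 10 markers every sST2-KO library lay below every WT library (10% of genes). Their summed level was 2165 to 3805 CPM in sST2-KO and 3090 to 3575 CPM in WT. Lyz2 alone made up 63.4 to 82.9% of the sum in sST2-KO and 56.2 to 59.7% in WT. Without it, a choice made after the values were seen, the other 9 summed to 652 to 1031.5 CPM in sST2-KO and 1247 to 1534 CPM in WT. Set against the full sum, Spp1 stood at 0.274, 0.178 and 0.173 in sST2-KO replicates 1 to 3 and at 0.590, 0.574 and 0.573 in WT. Against the other 9 it stood at 0.819, 1.04 and 0.472 in sST2-KO and at 1.37, 1.42 and 1.31 in WT. The groups did not overlap in either ratio. Within each library, which needs no scaling, there were 19.8, 24.9 and 14.04 Spp1 reads per read of Adgre1 (F4/80) in sST2-KO replicates 1 to 3, against 22.3, 19.9 and 21.2 in WT replicates 1 to 3, so the groups overlapped. Against Csf1r, the receptor for colony-stimulating factor, there were 6.22, 6.68 and 4.30 Spp1 reads per read in sST2-KO and 10.7, 9.80 and 9.62 in WT, with no overlap. Over the 10 markers, the ratio was lower in every sST2-KO library for 6 and overlapped for 4 (Adgre1, Cd68, Mrc1 and Fcgr1). Of those 6, C1qa, C1qb, Mertk and Lyz2 themselves overlapped between the groups, with log2 changes of -0.55, -0.64, -0.24 and 0.19. The other markers were themselves lower in every sST2-KO library, and among these only Csf1r and Itgam gave a lower ratio. For Itgam it was 24.8 to 38.2 in sST2-KO and 39.4 to 44.2 in WT. The part of macrophage content in the Spp1 result was not tested. In bulk tissue, fewer cells of a type and less RNA per cell cannot be told apart.

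Tgfbi encodes a fasciclin-domain protein that links collagens to integrins and that macrophages and fibroblasts secrete. Tgfbi (ENSMUSG00000035493, chromosome 13, 56757336 to 56787375, mm39) had 205, 158 and 123 CPM in sST2-KO replicates 1 to 3 and 305, 330.2 and 309.6 CPM in WT replicates 1 to 3. The WT libraries lay close together, and every sST2-KO library was below them. The log2 change was -0.96 (SE 0.23, 95% interval -1.50 to -0.41; edgeR unadjusted p = 0.00436, adjusted p = 0.374). In DESeq2 its adjusted p was 0.0110, and over all alternatives 0.0110 to 0.690. Set against the same 10 macrophage markers, Tgfbi reads were lower in every sST2-KO library for Lyz2 only. The part of macrophage content in the Tgfbi result was not tested. The ratios to Adgre1 and Itgam were higher in every sST2-KO library, and those to the other 7 markers overlapped.

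The 250 bases upstream of the start of both genes are shown because Spp1 and Tgfbi were the members with the lowest p; they come from RefSeq on GRCm38.p6, a different build from that of the counts. Of the 10 members, 7 matched a window (Spp1, Thbs2, Tnc, Postn, Sparc, Ccn1 and Tgfbi); Thbs1, Ccn2 and Fn1 are named only. Spp1, Tnc and Postn have 2 windows each in the table, and only the one nearest the start of the longest principal transcript was searched and is shown. Capitals mark matches to 6 motifs: AP-1 (TGANTCA), TEAD (GGAATG), RUNX (TGTGGT), the GC box (GGGCGG) and the CArG box of serum response factor, each on both strands, and TATAAA on the gene's strand. Spp1 is at chr5:104434861-104435110 on the plus strand and Tgfbi at chr13:56609336-56609585 on the plus strand.
Spp1 upstream: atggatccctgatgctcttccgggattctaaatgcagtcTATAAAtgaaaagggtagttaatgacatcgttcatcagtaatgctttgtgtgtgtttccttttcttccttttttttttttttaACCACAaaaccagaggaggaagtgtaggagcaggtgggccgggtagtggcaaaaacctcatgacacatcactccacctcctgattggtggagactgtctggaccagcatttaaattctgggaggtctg
Tgfbi upstream: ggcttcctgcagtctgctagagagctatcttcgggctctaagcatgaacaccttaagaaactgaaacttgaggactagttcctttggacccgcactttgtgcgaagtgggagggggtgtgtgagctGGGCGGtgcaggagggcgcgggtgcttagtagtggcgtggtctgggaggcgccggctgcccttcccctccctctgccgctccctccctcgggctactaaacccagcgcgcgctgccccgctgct
Counted from the start site, with -1 the last base before it, the Spp1 window holds TATAAA at -211 and the reverse complement of the RUNX letters at -128. A RUNX match was in 14% and TATAAA in 7.60% of all 32817 windows in the table. The Tgfbi window holds 1 GC box at -124, as 32.7% of windows do. The windows of Thbs2 and Sparc hold none of the 6. None of the 7 windows held an AP-1 match (6.75% of all windows) or a CArG box (1.47%).

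Fn1, Thbs2 and Sparc were also lower in every sST2-KO library. Fibronectin forms the provisional fibres on which other matrix is laid down. Fn1 (ENSMUSG00000026193, chromosome 1, 71624679 to 71692359, mm39) had 2076, 1573 and 1764 CPM in sST2-KO replicates 1 to 3 and 2624, 5120 and 3333 CPM in WT replicates 1 to 3, where replicate 2 stood highest. Its log2 change was -1.03 (SE 0.35, 95% interval -1.86 to -0.21; edgeR adjusted p = 0.431), and DESeq2 called it (adjusted p = 0.0401, 0.0401 to 0.690 over all alternatives). Without WT replicate 2 the log2 change was -0.74. WT replicate 3, with its hepatocyte transcripts, was the middle WT library for Fn1, which hepatocytes also make. With WT replicate 3 and sST2-KO replicate 2 left out the log2 change was -1.01. The part of hepatocyte RNA in the Fn1 level was not tested.

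Thrombospondin-2 limits vessel growth and steers collagen fibre assembly. Thbs2 (ENSMUSG00000023885, chromosome 17, 14885762 to 14914497, mm39) had 78.6, 62.8 and 57.1 CPM in sST2-KO replicates 1 to 3 and 86.6, 148 and 99.5 CPM in WT replicates 1 to 3. The groups did not overlap, by a gap of under 10 CPM, and the log2 change was -0.75 (SE 0.25, 95% interval -1.33 to -0.17; edgeR unadjusted p = 0.0188, adjusted p = 0.431). Osteonectin binds collagen and is involved in its maturation. Sparc (ENSMUSG00000018593, chromosome 11, 55285326 to 55314009, mm39) had 2497, 1353 and 2028 CPM in sST2-KO replicates 1 to 3 and 2534, 3155 and 2580.4 CPM in WT replicates 1 to 3. The highest sST2-KO and the lowest WT library were nearly level, and the log2 change was -0.49 (SE 0.32, 95% interval -1.26 to 0.27; edgeR adjusted p = 0.559). It was -0.28 without sST2-KO replicate 2.

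The 8 fibroblast markers all had negative log2 changes (46.5% of all tested genes did), and none was at 0 counts. At an unadjusted p under 0.05 in edgeR, 3 were lower (5.95% of all genes), and 0 passed after adjustment. For 5 the groups did not overlap, all lower (10% of all genes). The 8 markers summed to 6778, 5832 and 4628 CPM in sST2-KO replicates 1 to 3 and to 9258, 11839 and 9209 CPM in WT replicates 1 to 3, without overlap. Among them Lum, a collagen-binding proteoglycan, had 492 ± 117 CPM in sST2-KO and 1403 ± 173 CPM in WT (SD, n = 3 each). The sum was led by the matrix genes Dcn and Col1a2, at means of 3287 and 2330 CPM in WT, against 119 CPM for Pdgfra. Set against this sum, Fn1 stood at 0.306, 0.270 and 0.381 in sST2-KO and at 0.283, 0.432 and 0.362 in WT, so the groups overlapped. The same ratio overlapped for Thbs2 (0.0108 to 0.0123 in sST2-KO, 0.00935 to 0.0125 in WT), for Sparc (0.232 to 0.438 and 0.266 to 0.280) and for Postn and Tnc. The part of fibroblast content in these results was not tested.

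**Figure D3:**
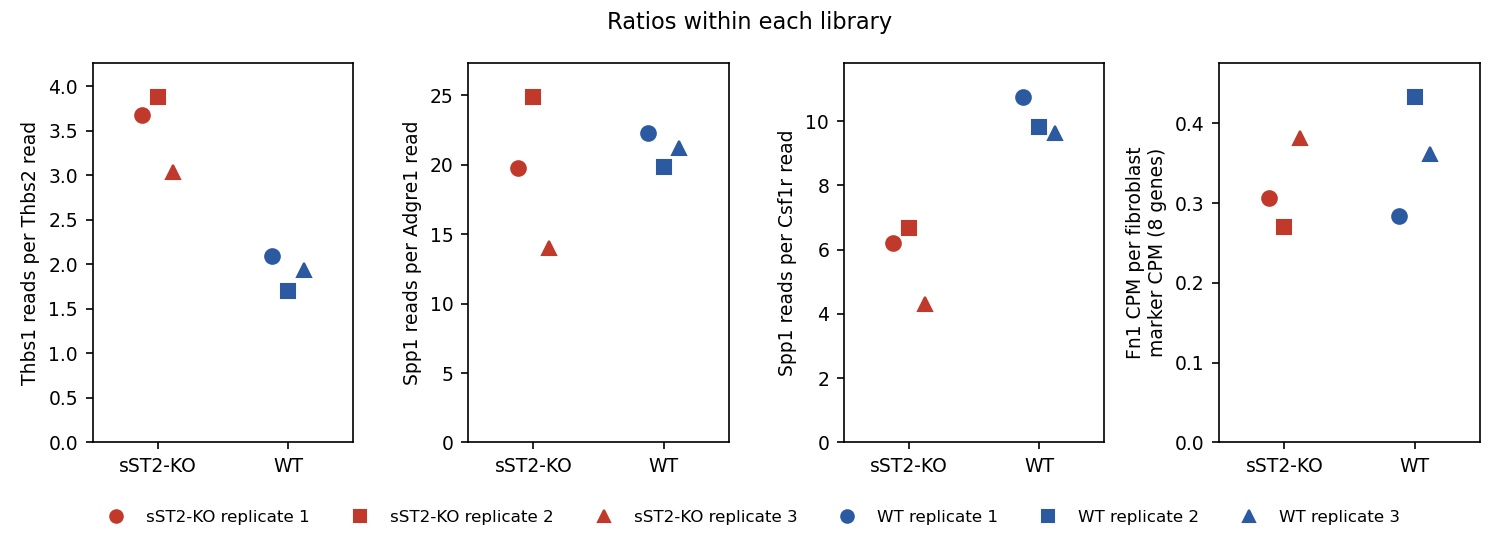
Ratios taken within each library (vertical axes, from 0) in sST2-KO (red, left) and WT (blue, right), 1 symbol per library: Thbs1 reads per Thbs2 read, Spp1 reads per Adgre1 read, Spp1 reads per Csf1r read, and Fn1 CPM over the summed CPM of 8 fibroblast markers. The groups are apart for Thbs1 over Thbs2 (3.03 to 3.87 in sST2-KO, 1.70 to 2.09 in WT) and for Spp1 over Csf1r, 1 of the 6 macrophage markers of 10 with no overlap, and they overlap for Spp1 over Adgre1, 1 of the other 4, and for Fn1.

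Thbs1 did not follow Thbs2. Thrombospondin-1, which activates latent TGF-beta and is stored in platelets, is encoded on chromosome 2 (ENSMUSG00000040152, 117942357 to 117957614, mm39). It had 289, 243 and 173 CPM in sST2-KO replicates 1 to 3 and 181, 251 and 193 CPM in WT replicates 1 to 3, with sST2-KO replicate 1 highest and replicate 3 lowest of all 6. The log2 change was 0.18 (SE 0.25, 95% interval -0.42 to 0.77; edgeR adjusted p = 0.780), and without sST2-KO replicate 1 it was -0.001. There were 3.68, 3.87 and 3.03 Thbs1 reads per Thbs2 read in sST2-KO replicates 1 to 3, against 2.09, 1.70 and 1.94 in WT replicates 1 to 3. The mean log2 ratio was 1.81 ± 0.19 in sST2-KO and 0.93 ± 0.15 in WT (SD, n = 3 each), a difference of 0.88, and the ratio was higher in 3 of 3 sST2-KO libraries than in any WT library. This pair was looked at after the values of both genes were known, and no test is given for it. All 7 tested platelet markers had negative log2 changes; the 8 on the list summed to 36.6 to 52.1 CPM in sST2-KO and 77.3 to 121 CPM in WT. Gp1bb, the remaining marker, was below the count filter, and the part of platelet RNA in the Thbs1 level was not tested.

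Postn and Tnc varied between libraries more than between groups, and in the same libraries. Periostin is involved in collagen crosslinking and marks activated fibroblasts. Tenascin-C is laid down in injured and mechanically loaded wall. Postn (ENSMUSG00000027750, chromosome 3, 54268530 to 54298458, mm39) had 929, 568 and 1420 CPM in sST2-KO replicates 1 to 3 and 871, 2594 and 1156 CPM in WT replicates 1 to 3. Tnc (ENSMUSG00000028364, chromosome 4, 63878022 to 63965252, mm39) had 83.9, 57.6 and 152 CPM in sST2-KO replicates 1 to 3 and 92.1, 197 and 107 CPM in WT replicates 1 to 3. For both genes WT replicate 2 was highest, sST2-KO replicate 3 next and sST2-KO replicate 2 lowest, and the groups overlapped. The log2 changes were -0.66 for Postn (SE 0.52, 95% interval -1.89 to 0.56; edgeR adjusted p = 0.605) and -0.43 for Tnc (SE 0.43, 95% interval -1.45 to 0.58; edgeR adjusted p = 0.685). Without WT replicate 2 they were -0.08 and -0.05, without sST2-KO replicate 2 they were -0.38 and -0.16, and without sST2-KO replicate 3 they were -1.04 and -0.90. The 8 smooth muscle markers, none at 0 counts, were also highest in these 2 libraries: they summed to 5195, 6226.5 and 10762 CPM in sST2-KO replicates 1 to 3 and 3141, 9654 and 4625 CPM in WT replicates 1 to 3. The part of smooth muscle content in the Postn and Tnc levels was not tested.

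The upstream windows of this pair are shown because both genes had the same 3 highest libraries and the same lowest one; both are RefSeq windows on GRCm38.p6 with capitals as above. Postn is at chr3:54360857-54361106 on the plus strand and Tnc at chr4:64047016-64047265 on the minus strand.
Postn upstream: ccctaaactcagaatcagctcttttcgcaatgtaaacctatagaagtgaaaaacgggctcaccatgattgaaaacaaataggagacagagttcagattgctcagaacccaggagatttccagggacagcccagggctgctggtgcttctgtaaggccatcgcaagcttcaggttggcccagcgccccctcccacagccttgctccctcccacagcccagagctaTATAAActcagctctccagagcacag
Tnc upstream: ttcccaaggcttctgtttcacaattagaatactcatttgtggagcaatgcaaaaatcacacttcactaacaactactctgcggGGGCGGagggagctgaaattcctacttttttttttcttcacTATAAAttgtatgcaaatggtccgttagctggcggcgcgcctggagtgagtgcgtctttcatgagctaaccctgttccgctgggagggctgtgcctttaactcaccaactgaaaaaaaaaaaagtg
Both windows hold TATAAA, at -26 in Postn and at -126 in Tnc, where 7.60% of all windows hold it. The Tnc window also holds a GC box at -167. A match describes letters and is not a binding site.

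Ccn1 and Ccn2 had higher means in sST2-KO, but not in every library. Both proteins are known to be induced through serum response factor and the YAP and TEAD factors, and both bind integrins and heparan sulphate. Ccn2 (ENSMUSG00000019997, chromosome 10, 24471340 to 24474581, mm39) had 960.2, 869 and 3199 CPM in sST2-KO replicates 1 to 3 and 1013, 1623 and 1057 CPM in WT replicates 1 to 3. A single library, sST2-KO replicate 3, was the highest of all 6, while the other two sST2-KO libraries were below every WT library. The log2 change was 0.45 (SE 0.55, 95% interval -0.87 to 1.76; edgeR adjusted p = 0.744), and it was -0.43 without sST2-KO replicate 3. Ccn1 (ENSMUSG00000028195, chromosome 3, 145352731 to 145355736, mm39) had 124, 225 and 309 CPM in sST2-KO replicates 1 to 3 and 187, 161 and 168 CPM in WT replicates 1 to 3. Here sST2-KO replicates 2 and 3 lay above all WT libraries and replicate 1 below them, for a log2 change of 0.35 (SE 0.33, 95% interval -0.42 to 1.12; edgeR adjusted p = 0.668). Without sST2-KO replicate 3 it was 0.02, and without sST2-KO replicate 1 it was 0.63. The 22 immediate early genes, whose RNA comes up quickly after stimulation or tissue handling, summed to 976, 1503 and 1491 CPM in sST2-KO replicates 1 to 3 and 1236, 1272 and 1293 CPM in WT replicates 1 to 3. As for Ccn1, sST2-KO replicate 1 was the lowest library and sST2-KO replicates 2 and 3 the highest. Their part in the Ccn1 level was not tested. Ccn1 and Ccn2 did not keep a fixed ratio: there were 0.129, 0.259 and 0.0966 Ccn1 reads per Ccn2 read in sST2-KO and 0.184, 0.0995 and 0.159 in WT.

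The Ccn1 window is shown for the TEAD letters, the only such match among the 7 windows; it lies at chr3:145649986-145650235 on the minus strand of GRCm38.p6.
Ccn1 upstream: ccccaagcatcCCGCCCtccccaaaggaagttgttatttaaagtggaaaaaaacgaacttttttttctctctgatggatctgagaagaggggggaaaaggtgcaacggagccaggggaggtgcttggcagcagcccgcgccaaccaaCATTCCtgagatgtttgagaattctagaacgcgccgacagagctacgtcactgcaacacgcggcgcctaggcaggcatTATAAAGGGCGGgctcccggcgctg
The reverse complement of GGAATG stands at -103, where 12.6% of all windows hold the motif, TATAAA at -25, and GC boxes at -239 and -19.

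**Figure D4:**
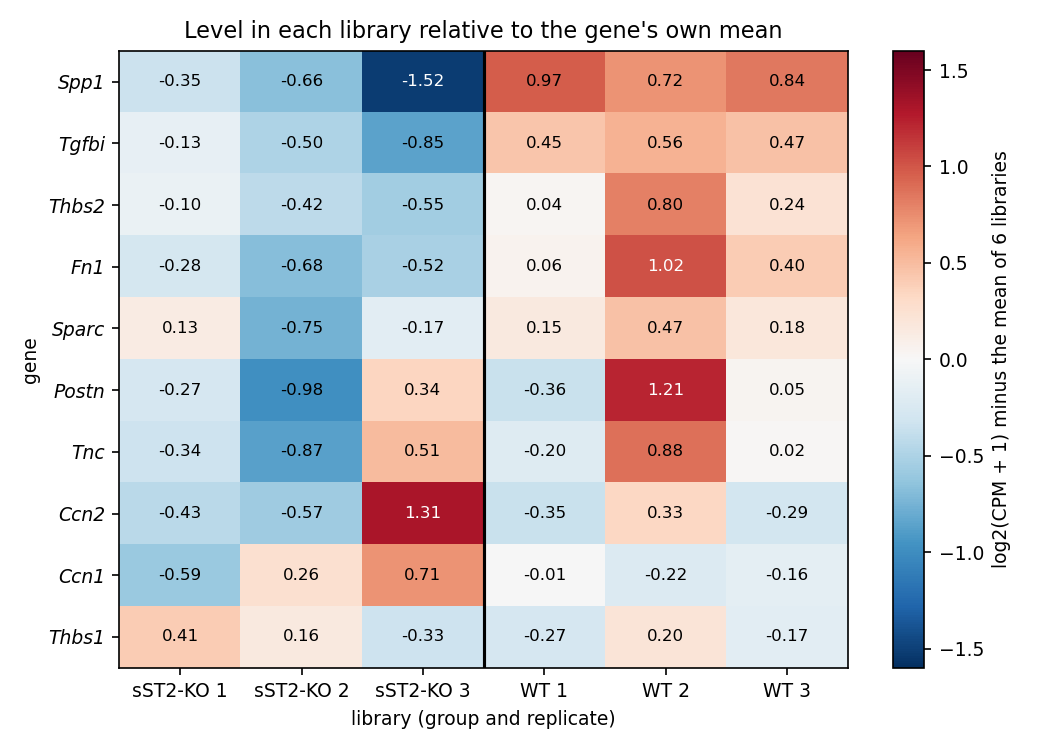
Level of each gene in each library (columns, sST2-KO left of the line, WT right) as log2(CPM + 1) minus that gene's mean over the 6 libraries; red is above and blue below the mean. Spp1, Tgfbi, Fn1 and Thbs2 are negative in all 3 sST2-KO and positive in all 3 WT libraries. Postn and Tnc share their high library (WT replicate 2), and Ccn2 is highest in sST2-KO replicate 3.

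The profiles over the 6 libraries were compared by the root mean square difference of log2(CPM + 1) after centring each gene on its own mean. Among members the closest pairs were Fn1 with Thbs2 (0.172) and Postn with Tnc (0.172), followed by Tgfbi with Thbs2 (0.251). Spp1 was nearest to Tgfbi, but at 0.401, and Ccn1 was nearest to Ccn2 at 0.5003. Among 9979 other protein-coding genes with a mean of at least 10 CPM, those closest to Spp1 were Ikzf1, a transcription factor of blood cells (0.139), and the chemokine receptors Ccr2 (0.186) and Ccr1 (0.189). Closest to Tgfbi were Cthrc1, which encodes a collagen triple helix protein (0.107), Evi2a (0.107) and the macrophage receptor Csf1r (0.110). Closest to Fn1 were Xylt1, which starts glycosaminoglycan chains on proteoglycans (0.127), Ssc5d (0.130) and Tnfrsf11b, which encodes osteoprotegerin (0.132). For Thbs2 they were Pid1 (0.0363), Irak3 (0.0607) and Nfatc1 (0.0617), and for Sparc the cholesterol exporter Abca1 (0.0785), Gxylt2 (0.0850) and Erap1 (0.0874). For Postn, Cd109 (0.144) and Tnc (0.172) were closest, and for Tnc the heparan sulphate polymerase gene Ext1 (0.115). Closest to Ccn1 was Maff (0.0819), a small basic leucine zipper factor, to Ccn2 the Wnt ligand gene Wnt16 (0.168) and the fibronectin receptor subunit Itga5 (0.181), and to Thbs1 Zbed3 (0.0712). With 6 libraries, near profiles are a description of these samples.

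Receptors of these proteins had mostly negative values. For reading this and the following lists, 46.5% of all tested genes were negative, 5.95% were lower and 5.08% higher at an unadjusted p under 0.05, and 10% lay wholly lower and 9.09% wholly higher without overlap. Of 22 tested receptor genes, 18 had negative log2 changes, 0 passed in edgeR after adjustment, 7 were lower and 0 higher at an unadjusted p under 0.05, and for 10 the groups did not overlap, all lower. Their median was -0.44, beside 0.042 for all tested genes. The lowest p belonged to Itgam, the alpha chain of a leukocyte integrin, Itga4, a subunit of leukocyte receptors for osteopontin and fibronectin, and Cd44. Itgam is also among the macrophage markers, and the receptor gene Itga2b among the platelet markers, so these lists share genes. Itga4 had 11.3, 12.1 and 8.58 CPM in sST2-KO replicates 1 to 3 and 22.1, 22.5 and 25.8 CPM in WT replicates 1 to 3. Cd44 had 73.3, 90.1 and 71.8 CPM in sST2-KO and 123, 190.1 and 124 CPM in WT. For both genes every sST2-KO library was below every WT library, with log2 changes of -1.13 (SE 0.22) and -0.89 (SE 0.23). The abundant Itgb1, the common beta subunit, had 794 ± 148 CPM in sST2-KO and 992 ± 398 CPM in WT, and Cd36 had 989 ± 487 and 794 ± 85.9 CPM in the same order (SD, n = 3 each).

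Other matricellular genes also had mostly negative values. Of 26 tested, 22 had negative log2 changes and 0 passed after adjustment. At an unadjusted p under 0.05, 8 were lower (5.95% of all genes) and 0 higher (5.08%). For 10 the groups did not overlap, all lower (10% of all genes), and the median was -0.50. Ccn5, a CCN family member that lacks the C-terminal domain, had 211, 199.8 and 231 CPM in sST2-KO replicates 1 to 3 and 364, 495 and 411 CPM in WT replicates 1 to 3 (log2 change -0.99, SE 0.21). It was thus lower in every sST2-KO library, where its relatives Ccn1 and Ccn2 overlapped. Ibsp, the bone sialoprotein gene and a relative of Spp1, had 0.284, 0.990 and 2.13 CPM in sST2-KO and 8.99, 12.1 and 8.77 CPM in WT (log2 change -3.14, SE 0.67). Angptl2 was at -0.65 (SE 0.16). The abundant Fstl1 had 797 ± 134 CPM in sST2-KO and 1371 ± 333 CPM in WT, and Ccn3 had 610.2 ± 292 and 725 ± 409 CPM in the same order (SD, n = 3 each).

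The proteases that cleave such proteins had 13 of 16 negative log2 changes (46.5% of all genes) and a median of -0.36. At an unadjusted p under 0.05, 5 were lower (5.95% of all genes) and 0 higher (5.08%). Mmp12, the macrophage elastase, had 128 ± 53.7 CPM in sST2-KO and 311 ± 35.03 CPM in WT, and Ctss, a cathepsin, had 328 ± 113 and 634 ± 95.9 CPM in the same order (SD, n = 3 each). Of 17 TGF-beta ligands and response genes, 11 were negative, with a median of -0.33, and at an unadjusted p under 0.05 1 was lower and 0 higher, close to the 5.95% and 5.08% of all genes; the inhibitor Smad7 had 34.0 ± 1.87 CPM in sST2-KO and 45.3 ± 3.58 CPM in WT (SD, n = 3 each). Of 21 YAP and TEAD target genes other than Ccn1 and Ccn2, 10 were negative and 11 positive, with a median of 0.011. Of the 22 immediate early genes, 9 were negative and 13 positive, with a median of 0.062; Fos had 20.8 ± 10.4 CPM in sST2-KO and 46.4 ± 6.54 CPM in WT, while Jund had 94.8 ± 10.5 and 54.4 ± 16.9 CPM in the same order (SD, n = 3 each). In each of these lists 0 genes passed after adjustment in edgeR.

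**Figure D5:**
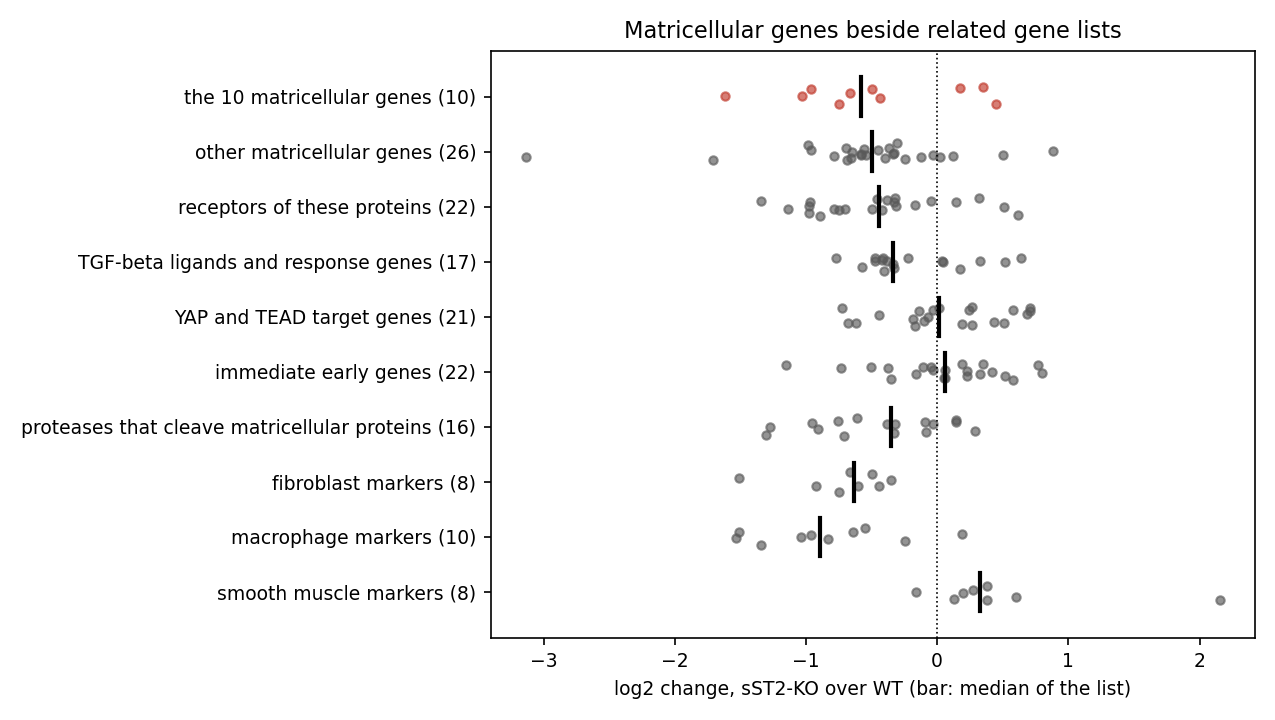
Log2 change, sST2-KO over WT (horizontal axis), of every tested gene of the 10 matricellular genes (red, top row) and of related lists and cell type markers (grey), with the number of tested genes in brackets and the median as a black bar. Medians are -0.58 for the 10 genes, -0.50 for other matricellular genes, -0.44 for receptors, 0.011 for YAP and TEAD targets, -0.63 for fibroblast, -0.90 for macrophage and 0.33 for smooth muscle markers.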

How the data were processed

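Messenger RNA of 6 mouse aortas was sequenced after poly-T selection and random hexamer priming, per the labels' protocols. The table that the authors deposited holds raw counts by Ensembl gene, with symbol, coordinates and length. Per the submitters' processing notes the build is mm39. The aligner, counter, strand setting and annotation were not given in the sources used here. Sample titles gave the groups, and no column was left without a sample. Of the members, 5 overlap another listed gene, and those neighbours held 0 to 123 counts over all libraries.

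Counts were tested with edgeR 4.0.16 (R 4.3.3): filterByExpr (minimum count 10, minimum total 15), TMM scaling, glmQLFit and glmQLFTest, with Benjamini-Hochberg adjustment over 16377 genes and a threshold of 0.05. SE is the log2 change divided by the square root of F, and intervals use its t quantile. All 10 members passed the filter. The script was tested on simulated counts. At the dispersion of these data, the edgeR test recovered 2% of 2-fold and 68.4% of 8-fold changes, with 22 false among 374 calls. A 2-fold change was thus rarely called, and a gene not called here may still differ. Alternatives were other scalings and filters, DESeq2 1.42.0, limma 3.58.1 (voom), a replicate block and left-out libraries. Between any pair of libraries the median chi-square was 6.55 to 84.1 times that of counting noise, so none was a duplicate. It was lowest between WT replicates 1 and 3 and highest between sST2-KO replicate 2 and WT replicate 2. Members and lists were chosen with earlier results of these data known. The naming rule takes all members, up to 3 genes with the lowest p and up to 2 abundant genes per list, and the 3 genes nearest each member in profile; only some of these are printed, and Gp1bb and the ratios were singled out after their values were seen. Marker lists covered smooth muscle, endothelium, fibroblasts, macrophages, platelets, hepatocytes, airway epithelium, adipocytes, erythroid cells, chondrocytes and striated muscle. Plots were drawn with matplotlib 3.10.9. The depth floor is 3 counts, or 0.148 to 0.239 CPM.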

Additional observations from a re-analysis of the deposited data

How the results depend on the processing

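Direction held for 8 of the 10 members in every alternative, and none was called by any alternative other than DESeq2. DESeq2 called Spp1 (log2 change -1.62), Fn1 (-1.03) and Tgfbi (-0.96), which edgeR did not. Thbs1 reversed to -0.001 without sST2-KO replicate 1 and Ccn2 to -0.43 without sST2-KO replicate 3; the cause was not tested. Leaving out 1 library at a time gave -1.88 to -1.35 (Spp1), -1.22 to -0.74 (Fn1), -1.16 to -0.80 (Tgfbi), -0.89 to -0.51 (Thbs2), -0.71 to -0.28 (Sparc), -1.04 to -0.08 (Postn), -0.90 to -0.05 (Tnc), 0.02 to 0.63 (Ccn1), -0.001 to 0.35 (Thbs1) and -0.43 to 0.76 (Ccn2). Over all genes, edgeR called 0 lower and 0 higher (974 and 832 at an unadjusted p under 0.05), DESeq2 232 and 59, and voom with quality weights 35 and 8; leaving out 1 library gave 0 to 1 lower (1 without sST2-KO replicate 2) and 0 higher. There were also 5 members without overlap under RLE and upper-quartile scaling. Same-numbered libraries correlated at 0.188, 0.090 and -0.055 in their deviations from group means. sST2-KO replicates 1 and 2 correlated best with their own number and sST2-KO replicate 3 did not, so this check does not settle pairing. The labels give the numbers no meaning, and they were not taken as pairs. With a replicate block 0 genes were called and Spp1 was at -1.69.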

Other observations

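Other cell type markers that could contribute to the aortic libraries were read with the same counts. The log2 changes of the 7 endothelial markers were all positive (median 0.38), and the markers summed to 722 to 1917 CPM in sST2-KO and 899 to 1135 CPM in WT. The 6 adipocyte markers summed to 1081 to 9244 CPM in sST2-KO and 1303 to 3919 CPM in WT, with the brown fat gene Ucp1 at 591, 35.03 and 1433 CPM in sST2-KO replicates 1 to 3 and 44.7, 2.87 and 32.3 CPM in WT replicates 1 to 3. The 6 erythroid markers summed to 60.3 to 1174 CPM in sST2-KO and 744 to 4761 CPM in WT. The 7 striated muscle markers summed to 45.6 to 257 CPM in sST2-KO and 20.2 to 406 CPM in WT. The 7 chondrocyte markers summed to 37.7 to 348 CPM in sST2-KO and 79.2 to 190.2 CPM in WT. Among them Col2a1, the collagen of cartilage, had 3.12, 12.4 and 2.59 CPM in sST2-KO replicates 1 to 3 and 29.6, 126 and 67.1 CPM in WT replicates 1 to 3, with no overlap (log2 change -3.61, SE 0.79); like every tested gene, it did not pass in edgeR, where the lowest adjusted p was 0.264. Chad, a cartilage matrix protein, had 1.82, 293 and 1.33 CPM in sST2-KO replicates 1 to 3 and 4.58, 21.4 and 7.75 CPM in WT replicates 1 to 3.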
